A study of Caenorhabditis elegans with 8 samples.

Results

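The cuticle collagen genes examined here were all genes of the deposited table whose WormBase symbol is col- followed by a number. There were 156 of them among 46916 genes, all protein coding, with 41 on chromosome IV, 31 on V, 27 on X, 24 on II, 21 on I and 12 on III. RIP-seq, in which RNA pulled down with a protein is sequenced, was used to measure RNA bound to ADR-1 in Caenorhabditis elegans at the L1 stage. Pellets came from larvae that were synchronised by bleaching, hatched overnight in buffer without food and UV-crosslinked. Both strains lacked their own adr-1 and carried FLAG-tagged ADR-1 (neural adr-1) on an extrachromosomal array under the promoter of the pan-neuronal gene rab-3, which also drove GFP. The strain HAH26 additionally lacked adr-2 and is called adr-2(-), and HAH25 kept adr-2 and is called control. From each strain, RNA of the anti-FLAG immunoprecipitate (IP) and of whole-animal lysate (input) was sequenced in 2 biological replicates, giving 4 groups of 2 libraries. No IP from animals without tagged ADR-1 was analysed here, so RNA held unspecifically by the beads is part of the IP values. The inputs held RNA of the whole larva, in which fewer cells of a type and less RNA per cell cannot be told apart.

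Cuticle collagens are short secreted proteins that the epidermis makes in bursts around each moult. Their chains carry interrupted Gly-X-Y repeats, in which glycine opens every triplet, flanked by cysteines. The chains wind into a triple helix, prolines are hydroxylated in the secretory pathway, and the chains are trimmed by proteases and cross-linked outside the cell into the layers of the cuticle. ADR-1 is a double-stranded RNA binding protein without editing activity of its own, and ADR-2 is the RNA editing enzyme of the worm.

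The repeat is visible in the coding DNA, which was read from the WBcel235 genome (the same assembly as ce11) with the Ensembl annotation. Gly-X-Y triplets in unbroken runs of at least 3 numbered 20 to 198 a gene, with a median of 51, outside col-17, whose annotated reading frame held none. They made up a median of 51% of the coding sequence. Stretches from the longest run of 5 genes are shown, since the results below turn on them: the most abundant members in the inputs (col-42 and col-107), a member high in the IPs numbered 1 (col-165) and members that differed between the inputs (col-113 and col-44). The codons in capitals encode glycine and open each triplet.
col-42: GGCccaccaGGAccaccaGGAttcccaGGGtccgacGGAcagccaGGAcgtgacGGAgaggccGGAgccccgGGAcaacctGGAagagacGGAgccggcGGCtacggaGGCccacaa
col-107: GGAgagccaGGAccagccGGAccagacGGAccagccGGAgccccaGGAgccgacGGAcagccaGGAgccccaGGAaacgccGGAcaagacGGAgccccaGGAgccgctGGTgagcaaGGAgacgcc
col-165: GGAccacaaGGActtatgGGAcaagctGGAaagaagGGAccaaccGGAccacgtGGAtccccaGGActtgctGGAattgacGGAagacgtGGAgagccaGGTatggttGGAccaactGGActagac
col-113: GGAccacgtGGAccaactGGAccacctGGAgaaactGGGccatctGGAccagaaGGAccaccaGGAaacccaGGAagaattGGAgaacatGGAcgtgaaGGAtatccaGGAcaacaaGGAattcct
col-44: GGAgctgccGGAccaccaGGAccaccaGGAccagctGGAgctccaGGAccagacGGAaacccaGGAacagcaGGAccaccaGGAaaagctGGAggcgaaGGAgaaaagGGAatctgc
In coordinates of WBcel235, col-42 lies at chrV:18638484-18639591 (plus strand), col-107 at chrIV:1548721-1549714 (plus), col-165 at chrX:4353618-4354852 (plus), col-113 at chrIV:7150663-7152509 (minus) and col-44 at chrX:13591475-13592543 (plus). Exon length of the 156 genes ranged from 465 to 2960 bases, with a median of 1020, against a median of 1418 for all 12929 protein-coding genes tested.

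The values are the authors' normalised read counts, from which whole reads were recovered. The IPs held between 20950841 and 79185013 reads and the inputs between 2595323 and 2969937. In the IPs 1 read was worth 0.151 to 0.324 units. In the inputs 1 read was worth 6.40 and 8.91 units in adr-2(-) and 3.01 and 2.64 units in control. The IPs numbered 1 of the 2 strains resembled each other across genes (r = 0.988) more than replicate IPs of a strain did (r = 0.872 in adr-2(-) and 0.814 in control), and IP results are therefore also given without one or the other replicate number. The row of adr-1 was at 0 in all 8 libraries and adr-2 was not analysed here, so neither gene checked the labels. In 222 rows of the table the deposited mean differed from the mean of the 8 values. Such rows include col-101 (115.1 as deposited, against 360.9 from the values) and col-68 (87.3, against 29.05), so values of both are those of the row as deposited. The row of col-68 listed 43.3 and 12.3 units in the adr-2(-) IPs, 82.2 and 27.9 units in the control IPs, 25.6 and 26.7 units in the adr-2(-) inputs and 9.02 and 5.27 units in the control inputs, and it was called in no comparison.

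Collagen transcripts were present at L1 but concentrated in few genes. Of the 156 genes, 9 had no read in any library and 62 more had a mean under 10 units over the 8 libraries, which left 85 that were tested. In the inputs 22 genes had no read and 34 reached at least 100 units in every input. The 4 most abundant genes held 43.5% and the top 10 held 68.9% of all collagen signal in the inputs. Per kilobase of exon, the mean over the 4 inputs was 23064 units for col-42, 13227 for col-107, 6094 for col-98, 5994 for col-39, 5649 for col-147, 5458 for col-166, 4890 for col-103, 4263 for col-165, 4220 for col-125 and 3295 for col-80. Within the inputs col-42 held 21.2% and 20.4% of collagen signal in adr-2(-) and 22.2% and 23.5% in control. In IP replicate 1 it held 0.548% in adr-2(-) and 0.924% in control, and in IP replicate 2 it held 15.2% in adr-2(-) and 15% in control.

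**Figure D1:**
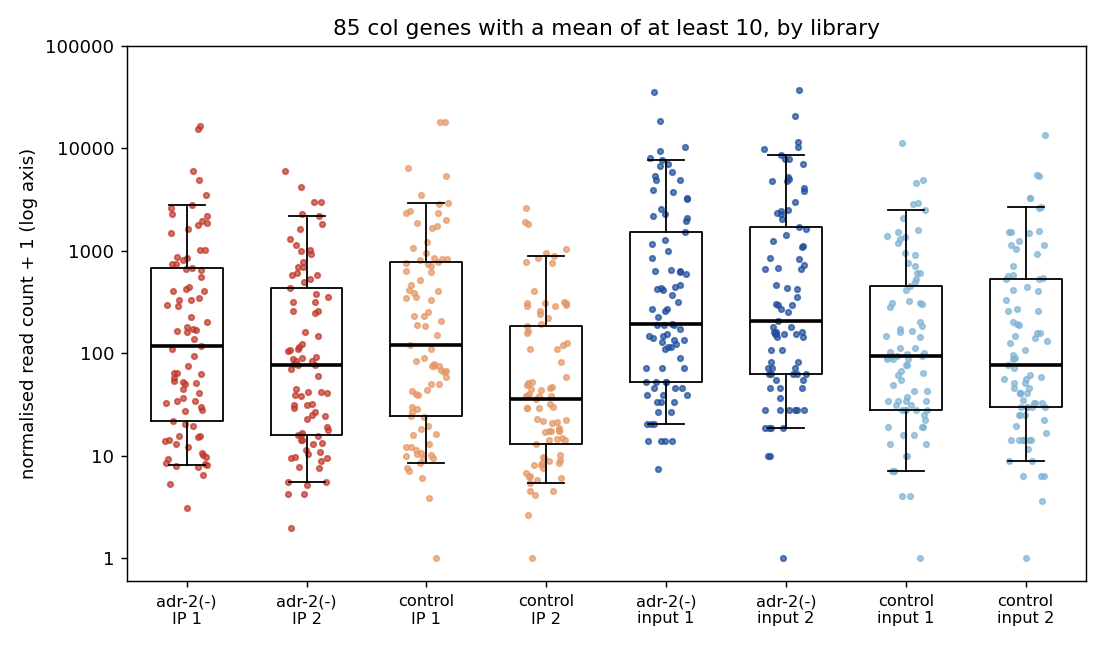
Normalised read counts plus 1 (log axis) of the 85 col genes with a mean of at least 10 in each of the 8 libraries; points are genes, boxes show quartiles with the median, and whiskers the 5th to 95th percentile. The median gene stood at 192.1 and 204.8 units in the adr-2(-) inputs, above the 93.2 and 76.4 units of the control inputs, and at 34.8 units in control IP replicate 2, the lowest of the IPs.

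To compare the collagen content of the lysates with no dependence on the scaling of libraries, collagen reads were set against all reads outside ribosomal RNA genes. They made up 1.37% (95% Wilson interval 1.35 to 1.39%) and 1.43% (1.41 to 1.45%) in the adr-2(-) inputs, against 0.826% (0.814 to 0.839%) and 0.881% (0.869 to 0.893%) in the control inputs. The groups did not overlap and the mean share was 1.64 times higher in adr-2(-), with an exact two-sided permutation p of 0.333, the smallest that 2 against 2 libraries allow. As a share of all reads, ribosomal RNA included, collagens made up 0.918% and 0.791% in the adr-2(-) inputs, against 0.572% and 0.733% in the control inputs. In the IPs, shares outside ribosomal RNA were 1.33% and 0.676% in adr-2(-) and 1.44% and 0.365% in control, so replicates of a strain differed more than strains did. These intervals cover counting error only.

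Single collagen genes were then compared between the inputs of the 2 strains. Of the 85 tested, 77 had a higher mean log2 value in adr-2(-), with a median log2 change of 1.65, against 0.01 over all 13276 genes tested and 0.25 over 3185 other protein-coding genes of similar exon length (910.5 to 1398.5 bases, the 10th to 90th percentile of the col genes). A call required a Benjamini-Hochberg adjusted p under 0.05 in limma and a log2 change of at least 1 in size. It was met by 8 genes higher in adr-2(-) (9.41% of the 85, beside 5.03% called higher of all genes) and 1 gene lower (1.18%, beside 9.36%). In 72 genes both adr-2(-) inputs lay above both control inputs and in 4 both lay below, beside 38.3% and 37.1% of all genes. Such separations, here and below, are in units, and 1 read was worth more units in the adr-2(-) inputs than in the control inputs.

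The most significant of the higher genes was col-113. It had 3183 and 3019 units in the adr-2(-) inputs and 604.6 and 567 units in the control inputs, a log2 change of 2.40 ± 0.46 (SE, adjusted p = 0.0152). Its replicates lay close together in both strains. The largest change was that of col-44, at 314 and 294 units in adr-2(-) against 27.1 and 44.8 units in control (log2 change 3.09 ± 0.80, adjusted p = 0.0384), where the control values rest on 9 and 17 reads. Next came col-150, at 596 and 659 units in adr-2(-) and 93.3 and 71.1 units in control (2.93 ± 0.76, adjusted p = 0.0383). The gene col-34, also known as ram-4 and needed for the shape of the sensory rays of the male tail, had 2280 and 2031 units in adr-2(-) and 304 and 329 units in control (2.76 ± 0.71, adjusted p = 0.0381). None of these 4 genes overlapped between the strains. Among the most abundant genes, col-147 was called, at 10258 and 11649 units in adr-2(-) and 2094 and 2617 units in control (2.22 ± 0.61, adjusted p = 0.0462). The other 3 called genes were col-155 (2.21), col-154 (1.77) and col-111 (2.15), the last named after its values were seen. In each of these 4 both adr-2(-) inputs lay above both control inputs. The most abundant gene, col-42, had 35155 and 37300 units in adr-2(-) and 11334 and 13357 units in control, with no overlap in units. In reads it had 5490 and 4188 in adr-2(-) and 3768 and 5069 in control, which overlap. Its change of 1.56 ± 1.05 did not pass (adjusted p = 0.33), in a fit that takes 1 spread per gene over inputs and IPs. Likewise col-107 had 18455 and 20867 units in adr-2(-) and 4876 and 5431 units in control (1.93 ± 0.72, adjusted p = 0.104). The same held for col-166, at 6653 and 10269 units in adr-2(-) and 1308 and 1549 units in control, whose change of 2.54 ± 0.84 had an adjusted p of 0.0776.

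A few genes ran the other way. In the row of col-101, the gene called lower, there were 38.4 and 71.3 units in the adr-2(-) inputs and 322 and 416 units in the control inputs (-2.78 ± 0.49, adjusted p = 0.0122). The gene col-159 had 224 and 160.3 units in adr-2(-) and 499 and 532 units in control, again without overlap, with a change of -1.44 ± 0.48 that did not pass (adjusted p = 0.0798). Its near neighbour col-160 overlapped between strains, at 993 and 1247 units in adr-2(-) and 1369 and 1146 units in control.

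Calls in this comparison depended on single libraries, while the shift of the group did not. Without any 1 of the 4 inputs the calls of col genes were lost, and calls over all genes fell too. Without control IP replicate 1 or 2 both rose. With edgeR on the recovered reads, 2 col genes were called higher, beside 385 of all genes. The call of col-34 was also lost without adr-2(-) IP replicate 1 (adjusted p = 0.0505 in limma) or 2 (0.0526). When libraries were rescaled to the same total, 0 col genes were called higher (beside 36 of all genes) and 3 lower (beside 4278). The median of all genes moved by -1.26. On that scale 58 of the 85 genes were still higher in adr-2(-), with a median of 0.41. Relative to the median of all genes, the median of the col genes was 1.64 and stayed between 1.29 and 1.68 in all settings run. Both replicate numbers gave the same median, 1.66 for number 1 and 1.65 for number 2.

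Input changes followed exon length across the transcriptome, so the col genes were set beside genes of their length. The median log2 change of other protein-coding genes was lower in each longer class when genes were split into 5 classes of equal size by exon length. It was 1.10 up to 826 bases, 0.34 at 827 to 1222 bases, -0.01 at 1223 to 1647 bases, -0.39 at 1648 to 2379 bases and -0.92 from 2380 bases. The class of 827 to 1222 bases held 71 col genes with a median of 1.77, and that of 1223 to 1647 bases held 13 with a median of 0.94. With both sets held to 910.5 to 1398.5 bases, 66 col genes remained, with a median of 1.68. Of these, the 17 with a mean of 1000 units or more had a median of 2.06, against 0.92 for 192 other genes. At 100 to 1000 units the medians were 1.77 (21 col genes) and 0.26 (1477 other genes), and at 10 to 100 units 1.29 (28 col genes) and 0.12 (1516 other genes). Within the col genes, longer genes also had smaller changes (Spearman's rho = -0.37 across 85 genes, which share libraries and are not independent). How far RNA length contributes to the change of the col genes was not tested.

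**Figure D2:**
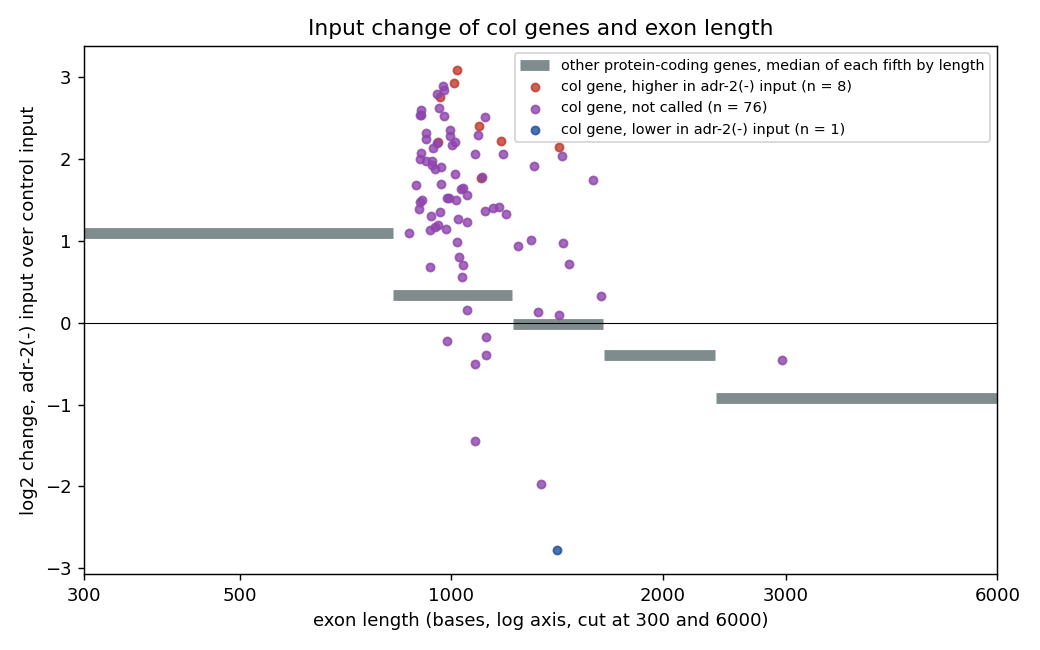
Log2 change of adr-2(-) input over control input against exon length (log axis) for the 85 tested col genes (points, coloured by call), with the median of the other protein-coding genes of each of 5 length classes as grey bars. Most points lie above the bar of their own length class, while col-101 lies lowest, at -2.78.

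Binding was examined as IP over input in each strain. In adr-2(-), collagens were lower in the IP: 30 of the 85 were called lower (35.3%, beside 10.4% of all genes) and 1, the row of col-101, was called higher (1.18%, beside 14.3%). The median log2 change was -1.74, against -0.11 for other genes of similar length and 0.23 for all genes. With both sets held to that length, the col genes with a mean of 1000 units or more had a median of -1.96, against -1.22 for 192 other genes. At 100 to 1000 units the medians were -1.59 for col genes and -0.25 for other genes, and at 10 to 100 units -2.15 and 0.18. In 56 genes both IPs lay below both inputs, and in 8 both lay above, beside 30.7% and 39.1% of all genes.

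The lowest change was that of the most abundant collagen, col-42, with 438 and 6011 units in the adr-2(-) IPs, against 35155 and 37300 units in the inputs of that strain (-4.48 ± 1.05, adjusted p = 0.0181). Both IPs lay below both inputs, although the IPs themselves differed widely. The gene col-8 had 8.61 and 7.78 units in the IPs and 192 and 160.3 units in the inputs (-4.26 ± 0.62, adjusted p = 0.00362). For col-150, IPs held 12.8 and 76.6 units and inputs 596 and 659 units (-4.26 ± 0.76, adjusted p = 0.00722). Again no IP reached its inputs. For col-44 they held 7.40 and 43.5 units, against 314 and 294 units in the inputs (-3.98 ± 0.80, adjusted p = 0.0109). Next came col-142, which had 9.67 and 30.2 units in the IPs and 256 and 303 units in the inputs (-3.94 ± 0.62, adjusted p = 0.00474). The IPs of col-150, col-44 and col-142 were higher in replicate 2, like those of col-42, while those of col-8 were close. Abundant genes among those called included col-39 (-2.44), col-80 (-3.28), col-98 (-3.24), col-103 (-3.15) and col-147 (-3.0), and the 30 changes ran from -4.48 to -2.21. Of the 30 genes, 7 were also among those called higher in the adr-2(-) inputs, the side both comparisons share. Calls of col-42 and col-44 were lost without adr-2(-) input replicate 1 (adjusted p = 0.082 for col-42 and 0.0586 for col-44) or replicate 2 (0.0959 for col-42 and 0.0632 for col-44), that of col-42 also without adr-2(-) IP replicate 1, where its change was -2.59 (0.0531), and that of col-150 without adr-2(-) input replicate 2 (0.0538), all in limma.

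The abundant collagens col-165, col-125 and col-107 did not pass the test. The gene col-165 had 16563 and 1813 units in the adr-2(-) IPs and 7678 and 7802 units in the inputs, with a change of -0.50 ± 1.14 (adjusted p = 0.774): 1 IP lay above and 1 below the inputs. For col-125 the IPs held 4945 and 930 units and the inputs 5910 and 7054 units (-1.59 ± 1.21, adjusted p = 0.361). For col-107 they held 6002 and 4215 units, against 18455 and 20867 units in the inputs (-1.96 ± 0.72, adjusted p = 0.0796).

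In control, the median log2 change of the col genes was -0.49, beside 0.04 for other genes of similar length and 0.11 for all genes. In limma 5 of the 85 were called lower (5.88%, beside 2.84% of all genes) and 0 higher (beside 0.535%). There 32 of the 85 had an unadjusted p under 0.05, beside 2450 of all 13276 genes. With edgeR, which also called 0 higher, the median was -0.01. With both sets held to similar length in limma, col genes at 1000 units or more had a median of -0.46, against -0.60 for 192 other genes. At 100 to 1000 units the medians were -0.39 for col genes and -0.06 for other genes, and at 10 to 100 units -0.97 and 0.22. In 32 genes both IPs lay below both inputs and in 18 both lay above, beside 24.6% and 26.1% of all genes. The called genes were col-101 (whose control IPs are listed at 0), col-176, col-159, col-160 and col-39. The gene col-159 had 76.6 and 43.4 units in the control IPs and 499 and 532 units in the control inputs (-3.14 ± 0.48, adjusted p = 0.01). For col-39 the IPs held 948 and 857 units and the inputs 4560 and 5502 units (-2.47 ± 0.47, adjusted p = 0.026). Replicate IPs of both genes lay within 2-fold of each other. For col-160 they held 205 and 126 units, against 1369 and 1146 units in the inputs (-2.96 ± 0.61, adjusted p = 0.0378). For col-176 they held 6.04 and 16.5 units, against 141 and 124 units in the inputs (-3.59 ± 0.75, adjusted p = 0.0401). Both IPs lay below both inputs in each of these. The member with the smallest p in the other direction, col-121, did not pass, with 854 and 942 units in the IPs and 310 and 271 units in the inputs (1.63 ± 0.48, adjusted p = 0.129). Without the 222 mismatched rows, 0 col genes were called lower in control and 0 of all genes in either direction, against 71 higher and 377 lower with them. With those rows kept, edgeR on the recovered reads called 4 lower, beside 361 of all genes. Without either adr-2(-) IP or control IP replicate 1, more col genes were called lower in limma, as were more of all genes. Without any 1 of the inputs fewer were, again as over all genes. Without control IP replicate 2 the median of the col genes was 0.67, beside 0.02 for all genes, and more of both were called higher. Calls of col-159, col-160, col-176 and col-39 were lost without either control input (adjusted p = 0.126 to 0.298 in limma). Without either adr-2(-) input (0.0853 to 0.1) or control IP replicate 1 (0.0563 to 0.088), those of col-160, col-176 and col-39 were lost, and without control IP replicate 2 that of col-160 (0.0569), also as adjusted p in limma.

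**Figure D3:**
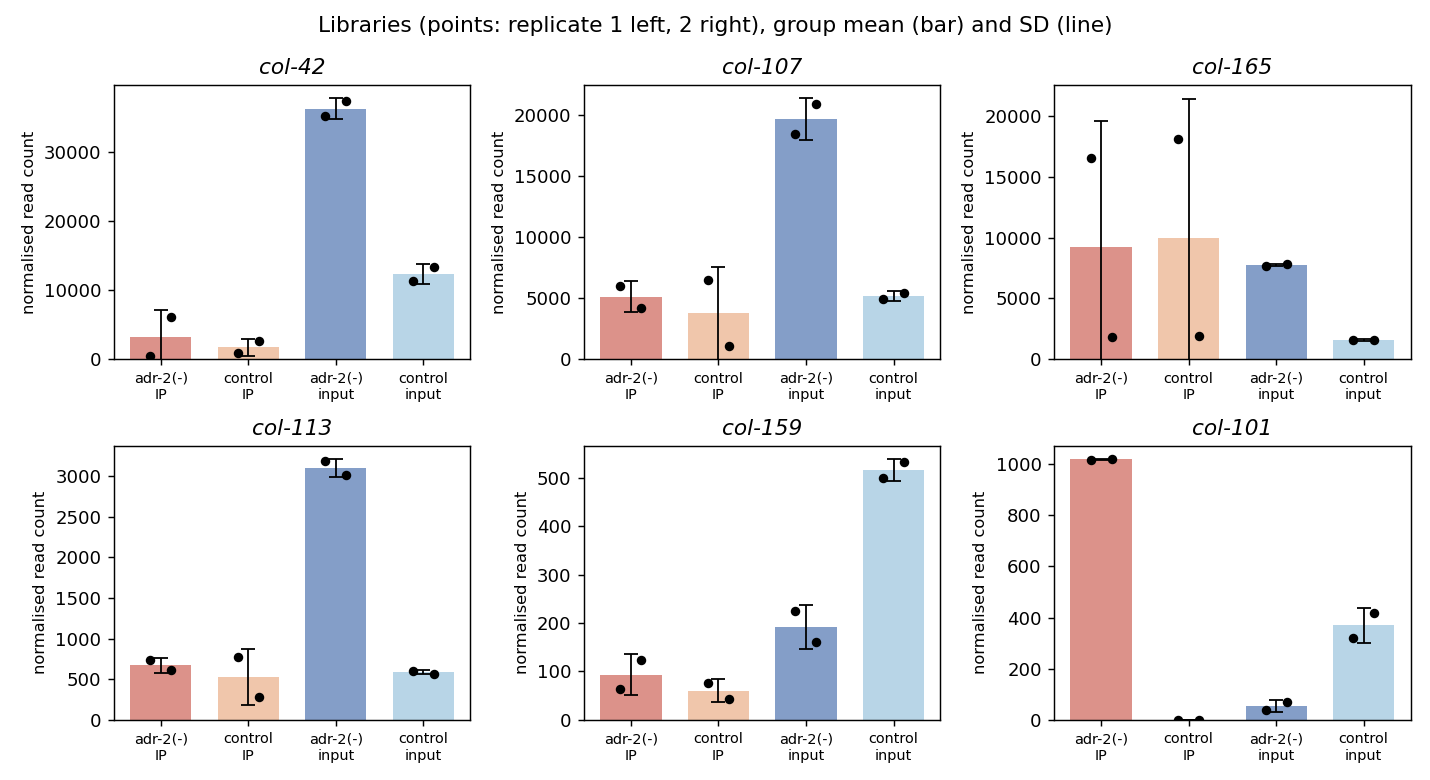
Normalised read counts of col-42, col-107, col-165, col-113, col-159 and col-101 by group; points are libraries (replicate 1 left, 2 right), bars group means and lines the SD (n = 2), drawn from 0 up. The adr-2(-) inputs of col-42, col-107 and col-113 stand above every other group, col-159 is highest in the control inputs, and the row of col-101 is listed at 0 in both control IPs.

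Dependence on single libraries was large in both strains. The median of the col genes relative to that of all genes in adr-2(-) was -1.97 with all libraries, -2.30 without adr-2(-) IP replicate 1 and -1.36 without adr-2(-) IP replicate 2. Fewer genes were called lower there without either of those IPs or any 1 of the inputs, among the col genes and over all genes. In control the same median was -0.60 with all libraries, -1.71 without control IP replicate 1 and 0.65 without control IP replicate 2, so its direction rested on control IP replicate 2. With every library rescaled to the same total, 14 genes were called lower and 6 higher in adr-2(-), beside 304 and 4888 of all genes. The median of all genes moved by 1.16 and that of the col genes was -0.62, which is -2.01 relative to all genes.

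Replicate IPs were then compared gene by gene. In adr-2(-), 41 of the 85 had at least 2-fold more signal in IP replicate 1 than in replicate 2, 15 had at least 2-fold less, and 29 lay within 2-fold. In control the counts were 57, 5 and 23. The median log2 ratio of replicate 1 to 2 was 0.98 in adr-2(-) and 1.63 in control, beside 0.01 in adr-2(-) and 0.04 in control for all other genes tested. The SD of that ratio was 1.66 in adr-2(-) and 1.54 in control for the col genes. For the other genes it was 1.11 in adr-2(-) and 1.38 in control, so wide replicate differences were not limited to collagens. Counts by 2-fold, here and between the strains, are given for the col genes only. For comparison, replicate inputs lay within 2-fold in 78 col genes in adr-2(-) and 73 in control. In 35 genes replicate 1 was at least 2-fold higher in both strains, and in 4 (col-42, col-95, col-96 and col-176, of which col-95 and col-96 were named after their values were seen) replicate 2 was.

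Abundant genes were found on both sides. For col-165, IP replicates held 16563 and 1813 units in adr-2(-) and 18081 and 1930 units in control, so the same number gave close values in both strains. For col-125 they held 4945 and 930 units in adr-2(-) and 5405 and 297 units in control. The opposite order was seen in col-42, with 438 and 6011 units in adr-2(-) and 821 and 2590 units in control. In col-98, IP replicates held 349 and 2972 units in adr-2(-) and 712 and 879 units in control, and in col-103 they held 295 and 2962 units in adr-2(-) and 616 and 773 units in control. By signal, col-42 ranked first of the col genes in all 4 inputs and in both IPs numbered 2, but in neither IP numbered 1. The labels give the numbers as biological replicates and name no shared stage, day or batch, and what these libraries share was not tested.

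**Figure D4:**
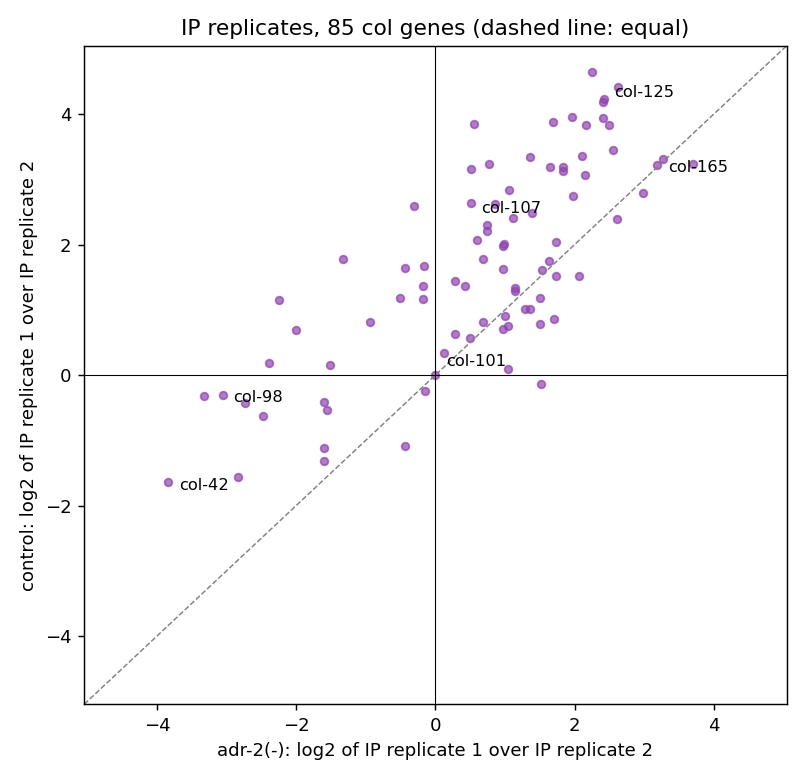
Log2 ratio of IP replicate 1 to IP replicate 2 in adr-2(-) (horizontal) and in control (vertical) for the 85 tested col genes; points are genes and the dashed line marks equal ratios. Most genes lie at upper right, with col-165 and col-125 far out, while col-42 lies at lower left.

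IPs of the 2 strains were also compared directly. Only the row of col-101 was called higher in adr-2(-) (1.18%, beside 1.53% of all genes), and 0 were called lower (beside 0.0%). It was the only gene of the 85 with an unadjusted p under 0.05 in limma, beside 300 of all 13276 genes. With edgeR the counts of calls were the same. The median log2 change was 0.37, against -0.04 for all genes and -0.09 for genes of similar length, and groups of 2 did not overlap in 2 genes upward and 2 downward, beside 6.45% and 8.43% of all genes. By replicate number, the median log2 difference between the strains was -0.23 for number 1, where 80 of the 85 genes lay within 2-fold, and 1.10 for number 2, where 46 were at least 2-fold higher in adr-2(-) and 5 at least 2-fold lower. Relative to all genes the median was 0.41 with all libraries, 1.06 without the IPs numbered 1, -0.15 without the IPs numbered 2, -0.12 without adr-2(-) IP replicate 1 and -0.71 without control IP replicate 2. Of all genes, 203 were called higher, and 0 without the mismatched rows. Without control IP replicate 1 or adr-2(-) IP replicate 1, more col genes were called higher, as were more of all genes. The gene with the smallest p in the lower direction was col-121, with 745 and 259 units in the adr-2(-) IPs and 854 and 942 units in the control IPs (-1.03 ± 0.48, adjusted p = 0.982).

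The study's own contrast was the ratio of ratios, IP over input in adr-2(-) divided by IP over input in control. Its median over the col genes was -1.33, against 0.02 for all genes and -0.22 for genes of similar length, and 77 of 85 values were below 0. With every library rescaled to the same total, the median of all genes moved by 1.39 and that of the col genes to 0.08, with 47 of 85 values above 0. Relative to all genes, the median of the col genes was -1.33 on that scale and -1.35 on the main one. This contrast contains the input difference given above, and it is no independent measure of it. The row of col-101 was called higher (1.18%, beside 1.93%) and 0 genes lower (beside 0.158%), and edgeR also called 0 lower. In limma 11 of the 85 had an unadjusted p under 0.05, beside 2369 of all 13276 genes. The smallest p in the lower direction was that of col-121 (-2.35 ± 0.69, adjusted p = 0.131), where adr-2(-) had 745 and 259 units in its IPs, against 640.3 and 828 units in its inputs, and control had 854 and 942 units in its IPs, against 310 and 271 units in its inputs. Without adr-2(-) IP replicate 1 its change was -3.11 and passed (adjusted p = 0.0229 in limma). Of all genes, 256 were called higher and 21 lower, and 0 in either direction without the mismatched rows. Without control IP replicate 2 or either adr-2(-) IP, some col genes were called lower, and more of all genes were than with all libraries. Relative to all genes, the median was -0.39 without control IP replicate 1.

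Because col-101 alone was called in all 5 comparisons, its row was looked at in full. It listed 1018 and 1021 units in the adr-2(-) IPs, 0 in both control IPs, 38.4 and 71.3 units in the adr-2(-) inputs and 322 and 416 units in the control inputs. With 3 reads as the floor in each control IP (0.725 and 0.554 units), the adr-2(-) IPs as listed were at least 1594-fold higher. That fold stands only if the listed values do, since they and the deposited mean cannot both be right. Which of them is right was not worked out. The fitted log2 changes of 10 ± 0.49 between IPs (adjusted p = 2.72e-06) and of 12.78 ± 0.70 for the ratio of ratios (adjusted p = 6.34e-06) depend on the pseudocount and are no bounds. The deposited mean of the row was less than its values give, and the gene dropped out of all comparisons when mismatched rows were left out. At the stricter limit of an adjusted p under 0.001, it was the only col gene called: lower in control IP over input (beside 1.31% of all genes), higher between the IPs (beside 1.3%) and higher in the ratio of ratios (beside 1.37%).

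**Figure D5:**
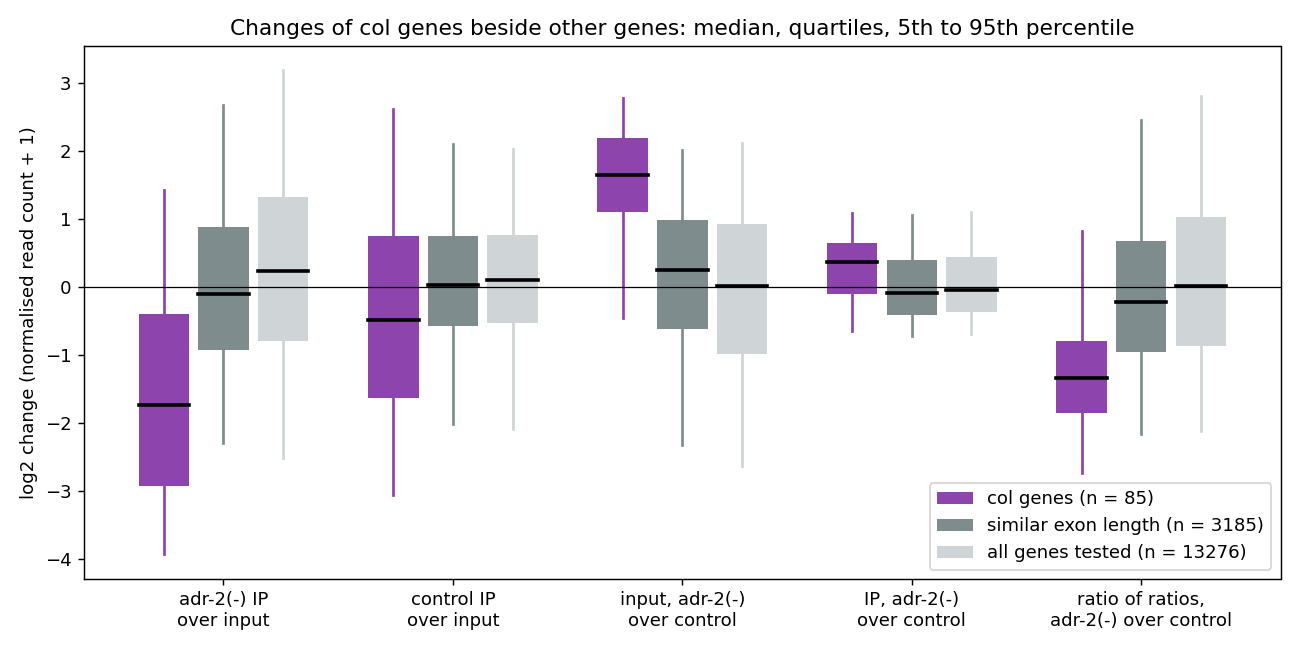
Log2 changes in the 5 comparisons for the 85 tested col genes, 3185 other protein-coding genes of similar exon length and all 13276 genes tested; black lines are medians, boxes quartiles and thin lines the 5th to 95th percentile. The medians of the col genes lie at -1.74 for IP over input in adr-2(-) and at 1.65 between the inputs, further from 0 than those of both other sets.

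Collagens with a known stage or role were then read in turn. The adult-stage collagen col-19 was low, with 14.7 and 6.81 units in the adr-2(-) IPs, 17.2 and 8.69 units in the control IPs, 51.2 and 62.3 units in the adr-2(-) inputs and 42.1 and 29.0 units in the control inputs. It was called lower in the adr-2(-) IP (-2.38 ± 0.69, adjusted p = 0.0386). The gene col-10, a collagen studied for its part in lifespan, had 2203 and 2458 units in the adr-2(-) inputs and 716 and 711 units in the control inputs (1.70 ± 0.92, adjusted p = 0.233). In the IPs it had 1490.3 and 580.3 units in adr-2(-) and 1654 and 162 units in control, again with replicate 1 high in both strains. Other collagens of that kind were near the floor: col-13 had no read in any input, and col-120 had 2 reads in the 4 inputs together. The dauer collagen col-2 had 1 read in the 4 inputs together, col-7 had 1, col-12 had 6 and col-17 had 4, and all stayed below the filter. The gene col-119 had 14.2 and 8.43 units in the adr-2(-) IPs, against 115 and 178 units in the inputs of that strain, and was called lower (-3.59 ± 0.64, adjusted p = 0.00719).

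The exception in kind was col-99, a collagen with a transmembrane segment that is known from nerve tracts rather than from the cuticle, and the longest of the family at 2960 exon bases. It had 679 and 161 units in the adr-2(-) IPs, 822 and 286 units in the control IPs, 115 and 80.2 units in the adr-2(-) inputs and 111 and 158 units in the control inputs. Both IPs lay above both inputs in each strain. Its changes, 1.77 ± 0.73 in adr-2(-) and 1.86 ± 0.73 in control, did not pass the test (adjusted p = 0.111 in adr-2(-) and 0.228 in control). Length and type cannot be told apart with a single gene.

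Near-identical members limit what the counts can tell, because the authors kept only reads with a single location. The coding sequences of 32 genes were at least 90% identical to that of another member. All 100-base words of the transcript were unique in the genome in 120 genes, and fewer than 50% were in 15. The pairs col-126 and col-127, and col-3 and col-117, had identical coding sequences, col-7 and col-62 were 99.7% identical and col-12 and col-13 99.5%. Values of such genes are understated and uncertain. No read was listed for col-126, col-92 or col-93, whose unique words made up 1.2%, 27.3% and 73.9%. In spite of 4.5% and 4.8% unique words, col-3 had 1159 and 1425 units in the adr-2(-) inputs and 159.4 and 187 units in the control inputs, and col-117 had 1274 and 1710.0 units in adr-2(-) and 165.4 and 256 units in control. Neither change passed (adjusted p = 0.0599 for col-3 and 0.0946 for col-117). Further close relatives with 22.5% to 34.7% unique words, col-94, col-167 and col-168, had higher means in the adr-2(-) inputs as well, at 1.5, 2.08 and 2.60 on the log2 scale, and none passed.

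Pairs that can be told apart were read side by side. The first, col-154 and col-155 on chromosome V (98.9% identical), are shown over the aligned 60 coding bases with the most differences, in capitals.
col-154: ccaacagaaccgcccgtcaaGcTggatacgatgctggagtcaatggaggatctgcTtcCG
col-155: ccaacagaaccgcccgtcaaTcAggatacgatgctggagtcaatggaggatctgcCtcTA
Both were higher in the adr-2(-) inputs, with 423 and 294 units for col-154 against 75.2 and 139.7 units in control (1.77 ± 0.50, adjusted p = 0.0494), and 442 and 428 units for col-155 against 99.3 and 87.0 units in control (2.21 ± 0.49, adjusted p = 0.0235). Both were also called lower in the adr-2(-) IP, at -2.92 and -2.72. Reads that fit both genes were not counted, and 56.3% and 53.3% of their words were unique. The second pair, col-159 and col-160, is 96.4% identical, and the annotated spans of the 2 genes overlap on the minus strand (chrV:13198231-13202177 and chrV:13200982-13202189).
col-159: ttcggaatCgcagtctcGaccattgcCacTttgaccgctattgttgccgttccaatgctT
col-160: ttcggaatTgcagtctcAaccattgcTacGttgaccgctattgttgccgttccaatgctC
These were 2 of the 8 genes with an input change below 0, as described above, and 92.1% and 92.3% of their words were unique.

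Other genes of the cuticle were counted from lists. The list of other cuticle collagens, most of them named for the body shape of their mutants, held 21 names. It included ram-4, which is col-34. Of the list, 20 names were found and 10 genes were tested. In the inputs 3 were called higher in adr-2(-) (30.0%, beside 5.03% of all genes) and 0 lower (beside 9.36%), with a median of 1.46, beside 0.34 for other genes of 827 to 1222 bases: dpy-3, a collagen of the annular furrows (948 and 979.7 units in adr-2(-), 196 and 229 units in control, 2.18 ± 0.37, adjusted p = 0.0107), dpy-17 (2.11) and dpy-14 (1.75). In adr-2(-) their median IP over input was -1.09 with 1 (dpy-3) called lower. In control the median was 1.51 with 0 called in limma. There 6 of the 10 had an unadjusted p under 0.05, beside 2450 of all 13276 genes, and the difference from the col genes was not tested. For dpy-3 the ratio of ratios was called lower (-3.30 ± 0.52, adjusted p = 0.012), a call lost without the mismatched rows (adjusted p = 0.157 in limma).

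Of 13 genes for the processing and cross-linking of collagens, 12 were tested, and in adr-2(-) 5 were called higher in the IP (41.7%, beside 14.3% of all genes) and 0 lower (beside 10.4%), with a median of 1.78. In this comparison changes also followed exon length, with a median of 0.69 for other genes of 1648 to 2379 bases (Spearman's rho = 0.52 across 12929 protein-coding genes, which share libraries and are not independent), and the lists were not matched for length. The genes called were the prolyl 4-hydroxylase subunits phy-2 (4.37) and dpy-18 (1.56), the oxidase partner tsp-15 (3.11), the protease bli-4 (2.00) and the thioredoxin-like dpy-11 (1.14). In the inputs 0 were higher and 1 (dpy-11, -1.19) lower. Of the 4 collagens of other matrices, the basement membrane chains emb-9 (2.38) and let-2 (2.91) and the type XVIII collagen cle-1 (2.61) were called higher in the adr-2(-) IP. Of 10 cuticlins and zona pellucida domain genes tested, 3 (noah-1, let-653 and fbn-1) were called higher there, noah-1 and let-653 were lower in the adr-2(-) inputs, and cut-6 was called higher in the control IP (adjusted p = 0.0414 in limma), though not without the mismatched rows (0.0719).

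Cell type markers were read beside the collagens. Of all genes, 14.3% were called higher and 10.4% lower in the adr-2(-) IP, 0.535% and 2.84% in the control IP, and 5.03% and 9.36% in the adr-2(-) inputs, which is the background of the counts of each marker list. Of 8 epidermal markers, 0 were called higher and 3 lower in the adr-2(-) inputs (lin-26, nhr-23 and nhr-25, the last in a mismatched row). The median of the 8 was -2.18, opposite in sign to the col genes, and 5 were called higher in the adr-2(-) IP. All but elt-3 had at least 1648 exon bases. Between the inputs, other genes had a median of -0.39 at 1648 to 2379 bases and -0.92 from 2380 bases. Changes in the adr-2(-) IP rose with exon length, and the marker lists were not matched for it. The summed signal of the epidermal markers was 5585 to 13248 units in the 4 IPs, while the inputs held 3740 and 3037 units in adr-2(-) and 4524 and 4187 units in control. Most of each sum was ajm-1 alone, with 3349 and 2618 units in the adr-2(-) inputs and 3053 and 2743 units in the control inputs. Of 15 neuronal markers, 8 were called higher and 1 lower in the adr-2(-) IP and 0 between inputs. Their sums were 8392 to 23009 units in the IPs, and the inputs held 11065 and 11872 units in adr-2(-) and 8302 and 8448 units in control. Of 7 intestinal markers, 4 were called lower in the adr-2(-) IP and 2 (asp-1 and ifb-2) in the control IP. Both control calls were lost without the mismatched rows (adjusted p = 0.0532 for asp-1 and 0.0786 for ifb-2 in limma). The intestinal sums were 9108 to 30393 units in the IPs, with inputs at 193069 and 213787 units in adr-2(-) and 71846 and 82580 units in control. Most of the input sums was asp-1, at 143078 and 159004 units in adr-2(-) and 52029 and 61226 units in control. Body wall muscle (9 markers) had 3 higher and 1 lower in the adr-2(-) IP and 2 higher in the adr-2(-) inputs, and germline (4 markers) had 2 lower in the adr-2(-) inputs. The part of cell type composition, of RNA length and of the scaling in the change of the collagens was not tested.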

How the data were processed

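RNA from 4 IP and 4 input libraries, 2 biological replicates per group by the labels, was measured by stranded poly(A) sequencing. As deposited, the signal of each library is the gene's read count after the authors' DESeq2 size factors, from uniquely aligned reads on ce11 with WormBase gene models. STAR 2.7.8a is the version in the submitters' processing notes, and the methods name another release. The authors also deposited a mean signal, used only to check rows, and their own comparison (a log2 fold change, scores for its error and test statistic, and p-values), which was not used.

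Whole reads were recovered from the signal (100.0% of values in rows whose mean matched). Symbols and biotypes were taken from the Ensembl annotation for 46892 of 46916 identifiers. Genes with a mean of at least 10 were tested on log2(value + 1) with limma 3.58.1 (R 4.3.3; trended eBayes) over all 8 libraries with 4 group means. Fold changes on this scale understate those of low genes. Adjusted p-values are Benjamini-Hochberg over 13276 genes and measure only the spread between the labelled replicates. Alternatives were edgeR 4.0.16 on recovered reads (for IP over input in adr-2(-), 1394 genes called higher and 1119 lower, against 1898 and 1385 in limma), equal totals, a pseudocount of 10, no filter, a stricter threshold, mismatched rows left out, replicate blocks and each library left out. Shares and summaries used Python 3.11.15, pandas 2.3.3 and scipy 1.17.1, and the fit was tested on simulated data. In the inputs, 53 of the 85 tested members had at least 10 reads in every library, which limits precision there.

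Members, lists and named genes were chosen with earlier results of these data known. Named were the 10 members most abundant in the inputs, up to 5 called members of each direction by size (or the 1 with the smallest p), members known for a role, mismatched rows and the closest relatives. Relatives were found on coding DNA, since protein sequences were not used here.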

Additional observations from a re-analysis of the deposited data

Results flagged for a closer look

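The row of col-101 differed between the strains in its change of IP over input, by a log2 ratio of ratios of 12.78 ± 0.70 (adjusted p = 6.34e-06, limma). It listed 1018 and 1021 units in the adr-2(-) IPs and 0 in both control IPs, against 38.4 and 71.3 units in the adr-2(-) inputs and 322 and 416 units in the control inputs. The deposited mean of the row was 115.1 and the mean of its 8 values was 360.9. Both cannot be right, and the difference between the strains rests on the values as listed.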

How the results depend on the processing

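Counts of called col genes are given as higher and lower for each comparison. Those of all genes tested are in brackets, or follow separately for IP over input in control and for the inputs. When 1 library was left out, counts over all genes changed as well and are not listed. Those ranges are therefore no result about the collagens alone. For IP over input in adr-2(-), 1 and 30 (1898 and 1385) became 6 and 14 (4888 and 304) with libraries rescaled to the same total. They became 3 and 18 (1811 and 1011) without the filter and 0 and 0 (30 and 82) at an adjusted p under 0.001. Without mismatched rows 0 (1654) were called higher. Leaving out 1 library gave 1 to 2 higher and 6 to 39 lower. For IP over input in control, 0 and 5 became 1 and 2 without the filter, 0 lower without mismatched rows and 1 lower at 0.001, with 0 to 4 higher and 1 to 10 lower when 1 library was left out. Between the inputs, 8 and 1 became 0 and 3 with the same total, 5 and 2 without the filter, 2 higher with edgeR, 0 lower without mismatched rows and 0 and 0 at 0.001, with 0 to 31 higher and 0 to 2 lower when 1 library was left out. Over all genes, the 71 and 377 of IP over input in control became 71 and 226 without the filter and 0 and 0 without mismatched rows. At 0.001, 174 were lower there. The 668 and 1243 of the inputs became 36 and 4278 with the same total and 304 and 743 without the filter. Without mismatched rows 1036 were lower there, and at 0.001 0 were called in either direction. Between the IPs, 1 higher (203) became 0 (0) without mismatched rows. For the ratio of ratios, 1 higher (256) became 2 (1799) with the same total and 0 (0) without mismatched rows. The median of the col genes in that contrast ran from -2.20 to -0.29 when 1 library was left out. Relative to all genes, the median in control was -0.60 and turned to 0.65 with the IPs numbered 2 left out, an alternative chosen after seeing the data, with -1.71 to 0.65 when 1 library was left out. Between the IPs it was 0.41, turned to -0.15 with the IPs numbered 2 left out, and ran from -0.71 to 1.13 when 1 library was left out. The cause was not tested. Same-numbered samples did not deviate together outside the IPs (correlation 0.457 between IPs and -0.01 to 0.037 elsewhere), so the numbers were not taken as pairs. With the number as a replicate block, 34 (1428) genes were called lower in the adr-2(-) IP, 7 (450) lower in the control IP and 10 (746) higher in the adr-2(-) inputs. The block within strain ended the call of col-176 in control (adjusted p = 0.0566 in limma). Values of only some of the named genes and comparisons were followed under the alternatives. Of those followed, 271 kept their direction and side of the threshold and 73 kept the direction but no longer passed. A further 3 (all of col-121) newly passed and 0 reversed. Other named genes that did not pass are not part of these counts. Over all genes, edgeR called 385 higher and 752 lower between the inputs, against 668 and 1243 in limma. With 9 control-input reads in the least covered of the genes called higher there, and 6 input reads in the least covered of those called lower in the adr-2(-) IP, input depth limits both.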
